A study of Rattus norvegicus with 325 samples.

Results

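The genes described here are the small heat shock proteins Hspb1, Hspb2, Hspb3, Hspb6, Hspb7, Hspb8 and Cryab, together with Bag3, the co-chaperone that several of them bind. They were taken from the raw count files by gene symbol, 8 of 17315 symbols, each on 1 line of the files, and all 8 were expressed highly enough to be tested in every muscle. RNA-seq was performed on the tibialis anterior, gastrocnemius, soleus and diaphragm muscles of male Sprague Dawley (SD) rats, an outbred laboratory strain, at 7 ages from 6 to 27 months, with 9, 12, 18, 21 and 24 months between. There were 325 libraries, 9 to 13 for each muscle and age. The rats were aged at the supplier under specific pathogen free conditions, no treatment or genotype distinguished the groups, and all rats were killed under isoflurane by exsanguination and thoracotomy. The muscles of an age group were collected on a single day, and an effect of age cannot be told apart from that of the collection day. According to the paper, the libraries of a muscle are as many as the animals. P-values within a muscle therefore measure the spread between rats. The labels do not say which libraries of different muscles came from the same rat, and tests between muscles treat libraries as independent. RNA came from whole muscle, in which fewer cells of a type and less RNA per cell cannot be told apart.

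Small heat shock proteins are chaperones that hold unfolding proteins in a soluble state without using ATP, and skeletal muscle contains more of them than most tissues. Much of their work there is at the Z-disc and along the desmin and actin filaments, which are strained at every contraction. Bag3 links Hspb8 to the Hsp70 chaperone Hspa8 and the ubiquitin ligase Stub1, and this complex sends damaged filament proteins such as filamin C (Flnc) to autophagy, a route named chaperone-assisted selective autophagy. Heat shock factor 1 (Hsf1) induces several of these genes during proteotoxic stress by binding repeats of the letters GAA in alternating orientation.

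Levels are given as counts per 1000000 counts (CPM) after scaling of the libraries of a muscle to each other, unless a common scale over the 4 muscles is named. A gene was called when limma-voom gave a Benjamini-Hochberg adjusted p under 0.05 over all genes tested and a difference over 1.5-fold, and log2 changes are given with their standard error (SE). Library totals ranged from 17555294 to 85316329 counts with a median of 31879679. Fibre markers followed the labels. At 6 months the summed level of 6 slow fibre markers had a median of 73100 CPM in the soleus and 2880 CPM in the tibialis anterior, and that of 8 fast fibre markers was 2220 and 187000 CPM. Running numbers of the samples fell into 3 series, of which 1 held all gastrocnemius libraries. Another held all 12-month libraries of the other muscles, with 1 library of 21 months from each of them. Differences between the gastrocnemius and the other muscles therefore cannot be told apart from a difference between those series. Nor can changes from 6 to 12 months within the other muscles.

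Before the ages are compared, 2 libraries have to be set apart, because the stress-inducible Hsp70 genes Hspa1a and Hspa1b were high in them. Their summed level is given on a common scale over all muscles. It was 805 CPM in replicate 0 of the diaphragm at 6 months, 9.57 times the median of its group. In replicate 7 of the tibialis anterior at 21 months it was 289 CPM, 4.56 times the median. The next highest library reached 3.02 times its group's median. Hspa1a and Hspa1b are near-identical copies whose reads may be shared between them, so their sum is used for these libraries, and single values of either are uncertain. In the diaphragm library Hspb1 stood at 1499 CPM against 418.3 to 559.4 CPM in the other 11 libraries, 3.22 times their median. Hspb8 was 2.26 times, Hspb7 1.85 times, Bag3 1.48 times and Cryab 1.27 times the median of the others, each above all 11. The tibialis anterior library held Hspb7 at 1679 CPM against 378.8 to 698.6 CPM in the other 12 libraries, 3.36 times their median. Hspb8 was 2.03 times, Hspb1 1.83 times, Cryab 1.74 times and Bag3 1.43 times the median there, again above all the others. Hspb2, Hspb3 and Hspb6 lay between 0.835 and 1.22 times the median in these libraries, within the range of the others. So Hspb1, Hspb7, Hspb8, Cryab and Bag3 were the highest of their group in both libraries, and the other 3 genes in neither. These are single libraries chosen by their Hspa1 level, and no test was made.

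**Figure D1:**
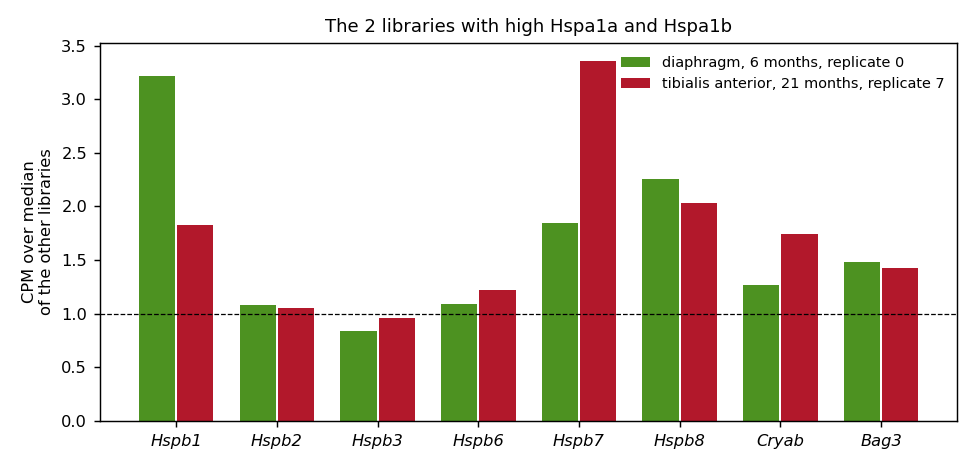
Level of each gene in the 2 libraries with high Hspa1a and Hspa1b, as a multiple of the median CPM of the other libraries of the same muscle and age (bars, linear axis from 0, dashed line at 1). Hspb1, Hspb7, Hspb8, Cryab and Bag3 stand at 1.27 to 3.36 times the median, and Hspb2, Hspb3 and Hspb6 at 0.835 to 1.22 times.

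The promoters are shown because the heat shock factor repeat is a feature by which these genes can be grouped without using expression. For 6 of the 8 genes, the 250 bases before the annotated start were found in the RefSeq table of build GRCr8, a later build than that of the count files. They were searched on both strands for an inward pair of repeats, GAANNTTC, and an outward pair, TTCNNGAA, which share letters where 3 repeats follow each other. Of 33469 rat promoters of the same length, 7.23% held the inward pair, 7.48% the outward pair and 13.5% either. Hspb1, Hspb6, Hspb8 and Bag3 held a match to a pair, and Hspb3 and Hspb7 did not. A run of 3 alternating repeats was also searched for. It occurred in 0.663% of all promoters and in none of those of these 6 genes, so the matches are to pairs only. The matching letters are in capitals below, and the start of the gene follows the last base.
Hspb1: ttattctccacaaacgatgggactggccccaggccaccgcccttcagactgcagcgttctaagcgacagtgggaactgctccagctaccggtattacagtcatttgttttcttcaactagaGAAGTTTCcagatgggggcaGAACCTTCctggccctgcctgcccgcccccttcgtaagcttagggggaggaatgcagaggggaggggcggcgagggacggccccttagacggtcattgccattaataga
Hspb6: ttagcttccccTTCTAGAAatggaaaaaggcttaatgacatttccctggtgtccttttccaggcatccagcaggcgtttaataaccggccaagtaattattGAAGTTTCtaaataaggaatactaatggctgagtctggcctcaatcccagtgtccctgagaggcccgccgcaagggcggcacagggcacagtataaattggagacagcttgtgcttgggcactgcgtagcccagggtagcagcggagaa
Hspb8: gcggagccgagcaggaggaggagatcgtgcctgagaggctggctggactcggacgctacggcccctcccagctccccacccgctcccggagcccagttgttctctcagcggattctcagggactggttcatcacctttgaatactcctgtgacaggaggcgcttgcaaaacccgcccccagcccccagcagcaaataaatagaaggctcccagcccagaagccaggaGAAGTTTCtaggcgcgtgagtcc
Bag3: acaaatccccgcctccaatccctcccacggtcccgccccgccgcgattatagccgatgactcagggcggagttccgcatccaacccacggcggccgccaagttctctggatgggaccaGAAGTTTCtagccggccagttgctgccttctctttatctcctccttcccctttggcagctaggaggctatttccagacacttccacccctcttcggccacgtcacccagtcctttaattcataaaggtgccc
Hspb7: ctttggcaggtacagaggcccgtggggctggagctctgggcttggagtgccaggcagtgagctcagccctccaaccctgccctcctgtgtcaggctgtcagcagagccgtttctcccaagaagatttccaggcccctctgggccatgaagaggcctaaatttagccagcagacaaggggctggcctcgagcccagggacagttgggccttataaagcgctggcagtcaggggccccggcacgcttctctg
These lie at chr12:26432302-26432551 on the minus strand (Hspb1) and on the plus strand at chr1:94934122-94934371 (Hspb6), chr12:45837058-45837307 (Hspb8), chr1:192533210-192533459 (Bag3) and chr5:159010509-159010758 (Hspb7). The letters GAAGTTTC occurred in all 4 promoters with a match, and in 1.22% of all promoters, a search made after they had been seen. They ended 122 bases before the start in Hspb1, 142 in Hspb6, 16 in Hspb8 and 125 in Bag3. Hspb1 held a further inward pair, GAACCTTC, and Hspb6 an outward pair, TTCTAGAA. Hspb7 is printed for contrast, since of the 8 genes its level rose most in the tibialis anterior and neither pair was found in its window. A match is a description of letters and not a binding site. Cryab and Hspb2, whose promoters are not printed, lie next to each other. Their gene models overlap in the RefSeq gene table, and whether the authors counted by strand is not given in the sources used here. Their counts are therefore uncertain where the models overlap.

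At 27 months, 5 of the 8 genes were called higher than at 6 months in the tibialis anterior, where 17.2% of all genes tested were called higher. These were Hspb7, Hspb8, Cryab, Hspb1 and Bag3. In the gastrocnemius 2 were called higher, Hspb8 and Hspb7, against 15.1% of all genes. In the soleus, Hspb8 was called higher, against 9.21% of all genes, and Hspb6 and Cryab were called lower, against 5.78%. In the diaphragm limma-voom called 0 of the 8, against 7.52% of all genes in either direction. There, 4 genes had an unadjusted p under 0.05, and edgeR and DESeq2 also called 0. Over 8 genes and 4 muscles, 10 of 32 comparisons were called and 20 had an adjusted p under 0.05. The median log2 change of the 8 genes was 0.71 in the tibialis anterior, 0.15 in the gastrocnemius, -0.23 in soleus and 0.20 in diaphragm, and the median of all genes tested in each muscle lay between 0.0026 and 0.042.

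**Figure D2:**
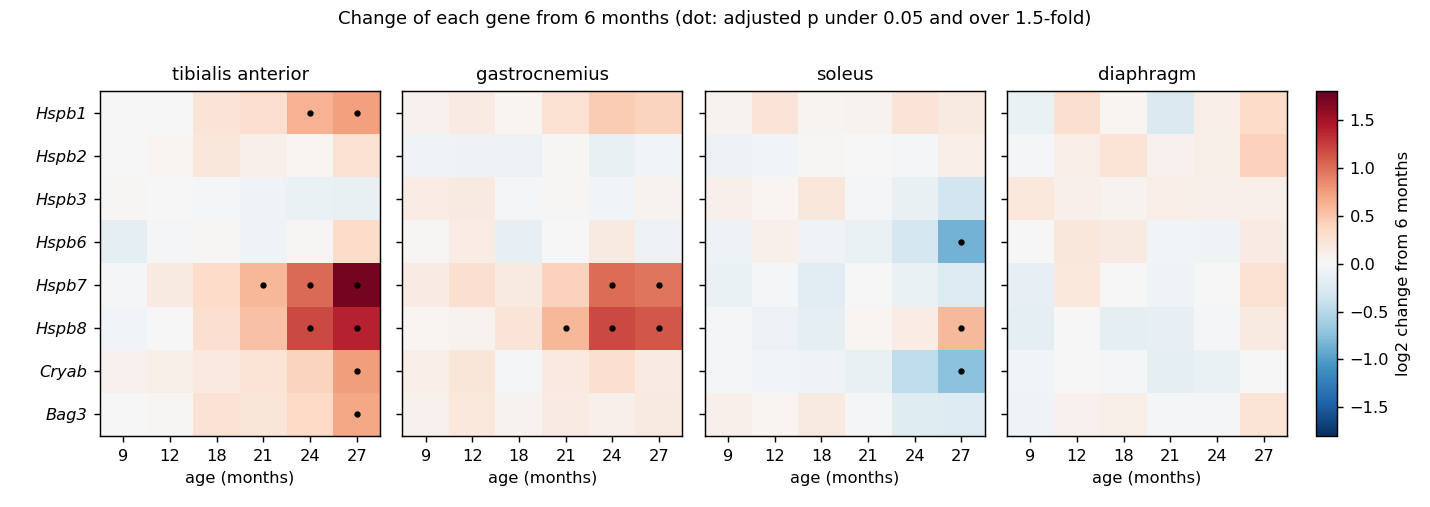
Log2 change of each gene from 6 months (colour, red higher and blue lower) by age on the x axis and gene on the y axis, with a panel for each muscle and a dot where the gene was called. Calls begin at 21 months and are most numerous in the tibialis anterior at 27 months, with blue calls in the soleus.

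These changes depend on how libraries are scaled to each other. When libraries were scaled by their total count instead, the changes of all genes at 27 months had a median of 0.34 in the tibialis anterior, 0.32 in the gastrocnemius, 0.16 in soleus and 0.043 in diaphragm. With that scaling 7 genes were called in the tibialis anterior and 3 in the gastrocnemius, because Hspb2 (0.60) and Hspb6 (0.65) passed the threshold in the first and Hspb1 (0.69) in the second. The share of all genes called with that scaling is not given, so these counts show only the dependence on scaling. Changes are therefore stated below relative to the bulk of genes.

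Hspb8, which forms the core of the selective autophagy complex with Bag3, was the gene called most often, in 6 of 24 comparisons with 6 months. Tibialis anterior levels stood at 422 CPM in the lowest, 452 in the median and 469 in the highest of 12 libraries at 6 months, and at 900, 1130 and 1830 CPM at 27 months. All 12 old libraries lay above all young ones. The log2 change was 1.39 ± 0.089 (SE), a 2.62-fold rise (adjusted p = 1.01e-23). In the gastrocnemius Hspb8 stood at 319, 370 and 450 CPM in 10 libraries at 6 months and at 549, 829 and 992 CPM in 11 at 27 months, again without overlap. The rise was 2.17-fold (log2 1.12 ± 0.095, adjusted p = 2.27e-16). In the soleus the levels were 512, 569 and 601 CPM at 6 months and 481, 861 and 1210 CPM at 27 months, with 11 of 12 old libraries above the young range and 1 below it. That rise was 1.5-fold (log2 0.59 ± 0.086, adjusted p = 1.2e-08), and it was called in 12 of 24 fits that each left out 1 library, with a lowest value of 0.53 without replicate 3 of 27 months. In the diaphragm the median went from 402 to 481 CPM, and the log2 change of 0.16 ± 0.084 did not pass the test (adjusted p = 0.112). Replicate 0 of 6 months, the library with high Hspa1, was the highest of its group at 902 CPM, and without it the change was 0.27.

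Bag3, the nucleotide exchange factor that joins Hspb8 to Hsp70, was called only in the tibialis anterior at 27 months, of the 24 comparisons. It stood there at 178, 184 and 200 CPM at 6 months and at 261, 309 and 332 CPM at 27 months, with all 12 old libraries above all young ones. The rise was 1.62-fold (log2 0.70 ± 0.049, adjusted p = 7.48e-22). The standard error was the smallest of the 8 genes in that muscle. In the soleus Bag3 went the other way, from a median of 469 to 401 CPM, a log2 change of -0.23 ± 0.052 that passed the test (adjusted p = 0.000153) and not the fold. In the diaphragm the change was 0.25 ± 0.059 (adjusted p = 0.000298) and in the gastrocnemius 0.16 ± 0.073 (adjusted p = 0.0431). So Hspb8 and Bag3 were both called higher in the tibialis anterior, whereas in the soleus Hspb8 was called higher while Bag3 had a change below 0.

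Hspb7, a small heat shock protein of heart and skeletal muscle that binds filamin C, had the largest rise of the 8 genes in the tibialis anterior. Tibialis anterior levels stood at 294, 371 and 486 CPM at 6 months and at 738, 1240 and 2090 CPM at 27 months, without overlap. The rise was 3.31-fold (log2 1.73 ± 0.14, adjusted p = 6.29e-19). In the gastrocnemius the levels went from 603, 687 and 787 CPM to 730, 1550 and 2440 CPM, a 1.95-fold rise (log2 0.97 ± 0.14, adjusted p = 9.25e-09). The lowest old gastrocnemius library, replicate 6, lay inside the young range, and it was also the lowest of its group for Hspb1, Hspb2, Hspb6, Cryab and Bag3. In the soleus the median went from 5170 to 4880 CPM, and the log2 change of -0.24 ± 0.13 did not pass the test (adjusted p = 0.0957). The diaphragm median went from 1500 to 1970 CPM, with a log2 change of 0.27 ± 0.11 (adjusted p = 0.0346).

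Cryab, or alpha B-crystallin, the chaperone of desmin, moved in opposite directions in 2 muscles. In the tibialis anterior it stood at 451, 500 and 556 CPM at 6 months and at 574, 830 and 1210 CPM at 27 months, all 12 old libraries above all young ones. The rise was 1.69-fold (log2 0.75 ± 0.094, adjusted p = 3.68e-11). In the soleus it stood at 2770, 3390 and 3880 CPM at 6 months and at 751, 2160 and 2880 CPM at 27 months, with 11 of 12 old libraries below the young range. The level fell to 0.601 of that at 6 months (log2 -0.73 ± 0.11, adjusted p = 9.52e-09). The changes in the gastrocnemius, 0.14 ± 0.12, and in the diaphragm, -0.0083 ± 0.066, did not pass the test (adjusted p = 0.312 and 0.931).

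Hspb6, also called Hsp20, a target of protein kinase A in muscle, fell in the soleus. Its levels there were 14500, 15800 and 18200 CPM at 6 months and 3120, 9670 and 11600 CPM at 27 months, without overlap. The level at 27 months was 0.557 of that at 6 months (log2 -0.84 ± 0.099, adjusted p = 1.41e-11). In the tibialis anterior the median went from 1950 to 2430 CPM, a log2 change of 0.33 ± 0.075 (adjusted p = 6.15e-05) below the fold. In the gastrocnemius the change was -0.10 ± 0.11 and in the diaphragm 0.15 ± 0.080, and neither passed the test (adjusted p = 0.417 and 0.131). The lowest soleus library of 27 months, replicate 8, held 3121 CPM of Hspb6 where the next lowest held 7185 CPM. It was also lowest for Cryab (751.3 against 1754 CPM), Hspb7 (1312 against 3362 CPM) and Hspb1 (283.4 against 559.5 CPM). Its slow fibre markers summed to 27600 CPM, the lowest of the 12, and its denervated fibre markers to 1750 CPM, the highest. Its smooth muscle markers (157 against at least 162 CPM in the others) and red cell markers (173 against at least 185 CPM) were also the lowest. The sums of the remaining marker lists lay within the range of the other libraries. Without replicate 8 the soleus changes were -0.71 for Hspb6 and -0.61 for Cryab, both still called. They were 0.29 for Hspb1, and -0.085 for Hspb7 in place of -0.24.

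Hspb1, or Hsp27, the ubiquitous member that binds actin filaments, was called higher in the tibialis anterior. It stood there at 266, 288 and 365 CPM at 6 months and at 395, 496 and 652 CPM at 27 months, without overlap. The rise was 1.66-fold (log2 0.73 ± 0.087, adjusted p = 6.84e-12). In the gastrocnemius the change was 0.41 ± 0.11 (adjusted p = 0.00124), below the fold. The soleus change of 0.16 ± 0.14 did not pass the test (adjusted p = 0.328). In the diaphragm Hspb1 stood at 418, 474 and 1500 CPM at 6 months and at 492, 649 and 816 CPM at 27 months. Its change of 0.33 ± 0.15 did not pass the test there (adjusted p = 0.0704), and without the young library with high Hspa1 it was 0.48 with an adjusted p of 0.0039, still below the fold.

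Hspb2 and Hspb3, which form a complex with each other in muscle, were called in 0 of 24 comparisons each by limma-voom, edgeR and DESeq2, with 4 and 5 of the 24 at an unadjusted p under 0.05. The change of Hspb2 furthest from 0 at 27 months was in the diaphragm, where the median went from 16.7 to 21.6 CPM (log2 0.41 ± 0.066, adjusted p = 3.26e-07). Its tibialis anterior change was 0.28 ± 0.056 (adjusted p = 9.49e-06), and those in the gastrocnemius (-0.044) and soleus (0.11) did not pass the test (adjusted p = 0.592 and 0.158). Hspb3 was lower in the soleus, from a median of 22.5 to 18.9 CPM (log2 -0.35 ± 0.078, adjusted p = 9.57e-05). Its tibialis anterior change was -0.14 ± 0.061 (adjusted p = 0.0411), and the sign turned with total-count scaling (0.19). Hspb3 gave 0.067 in the gastrocnemius and 0.093 in the diaphragm (adjusted p = 0.441 and 0.223). Cryab, the neighbour of Hspb2, fell in the soleus while the change of Hspb2 was above 0 and did not pass the test.

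**Figure D3:**
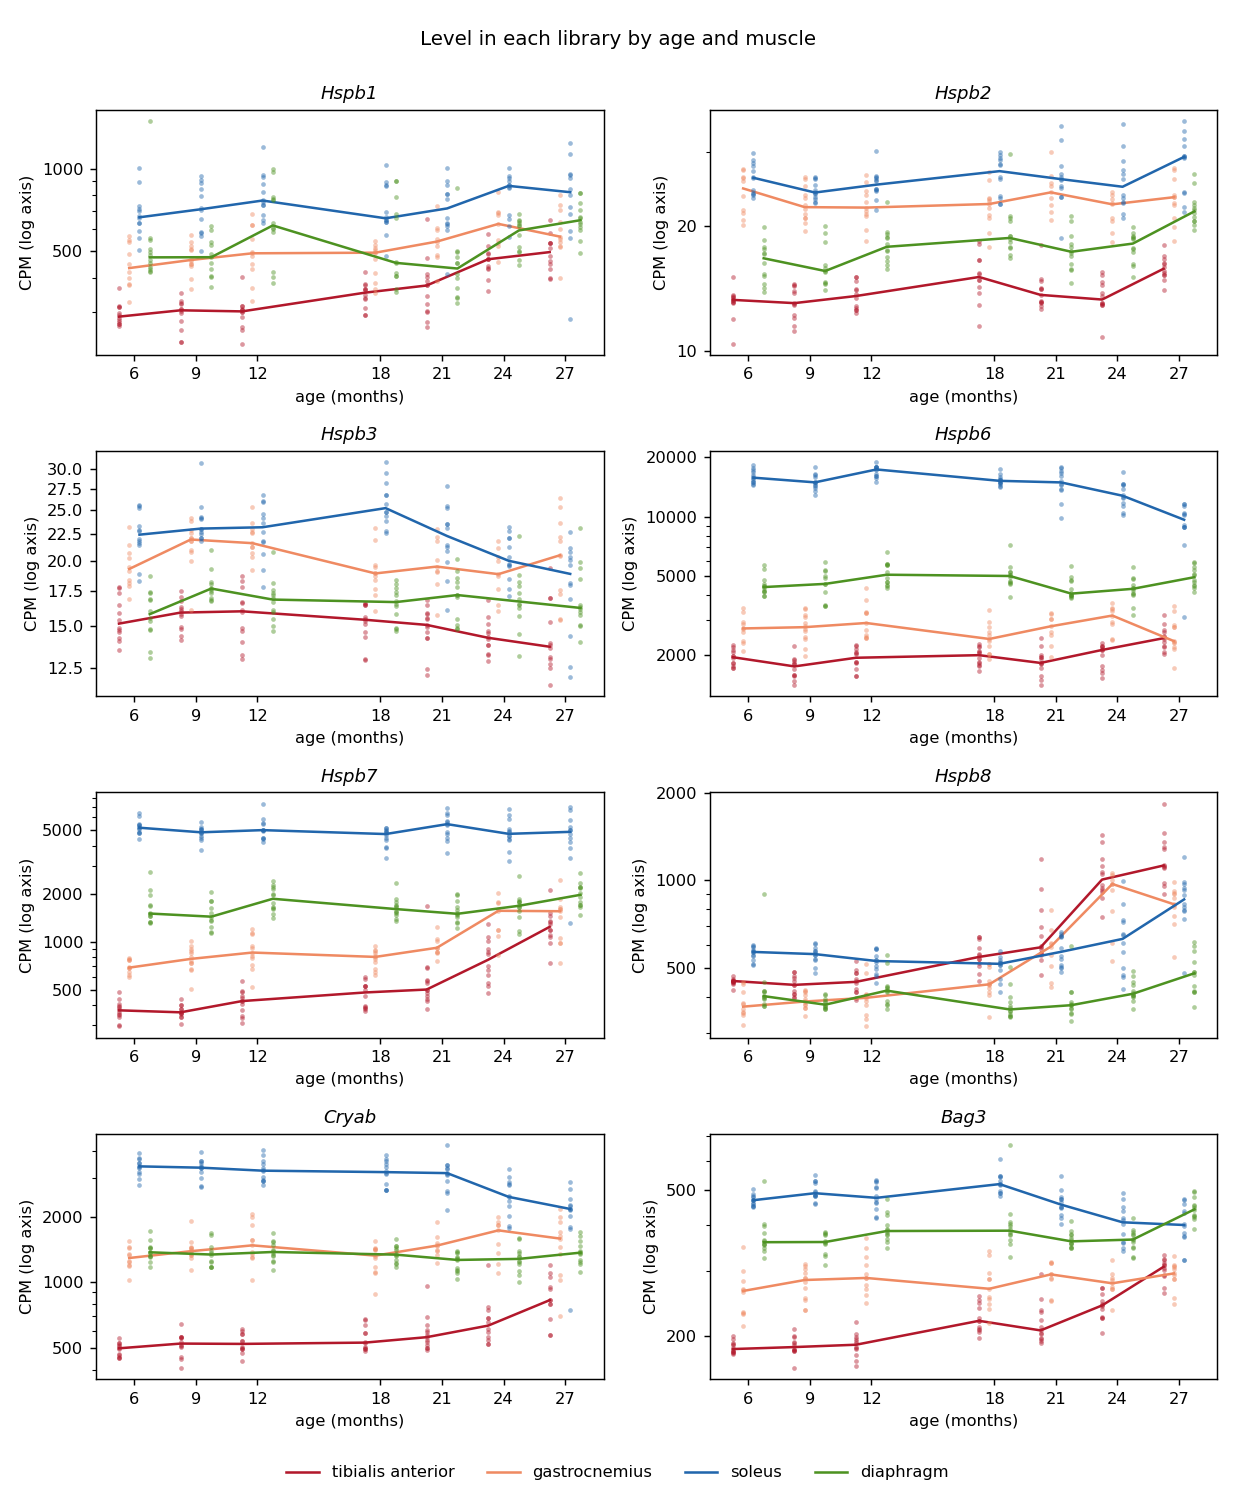
CPM of each gene in every library (points, log axis) by age in months, with lines through the medians and a colour for each muscle. Points of the 4 muscles are shifted sideways to be seen apart and are scaled within each muscle, so ages can be compared and muscles cannot. Tibialis anterior medians of Hspb7 and Hspb8 are above those of 6 months at 18 months and rise most after 21 months. Soleus levels of Hspb6 and Cryab fall after 21 months.

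The ages between show when these changes passed the thresholds. At 9, 12 and 18 months limma-voom called 0 of 32 comparisons each, as did edgeR and DESeq2, while 3, 4 and 11 had an unadjusted p under 0.05. At 18 months 8 of the 32 had an adjusted p under 0.05 but stayed below 1.5-fold, 5 of them in the tibialis anterior. Bag3 there changed by 0.26 (adjusted p = 1.42e-05) and Hspb8 by 0.29 (adjusted p = 0.00497). Each had 11 of 12 libraries above all those of 6 months. Few genes of any kind were called early. At 9 months these were 0.00851% of all genes in the tibialis anterior, 0.143% in the gastrocnemius, 0.123% in soleus and 0.108% in diaphragm, and at 12 months 0.196%, 0.885%, 0.353% and 0.532% in that order. The share of all genes called in either direction at 18 months was 5.45% in the tibialis anterior, 4.32% in the gastrocnemius, 2.84% in soleus and 2.25% in diaphragm. At 21 months 2 comparisons were called, Hspb8 in the gastrocnemius (0.59) and Hspb7 in the tibialis anterior (0.60), where 5.81% and 6.47% of all genes were called, beside 2.61% in the soleus and 1.68% in the diaphragm. The second rested on replicate 7 with its high Hspa1. Without the 2 libraries of that kind, the change of Hspb7 was 0.47 and not called. At 24 months 5 comparisons were called. Hspb8 (1.19), Hspb7 (1.02) and Hspb1 (0.63) were higher in the tibialis anterior, where 14.5% of all genes were called, and Hspb8 (1.19) and Hspb7 (1.00) in the gastrocnemius, where 18.8% were. The soleus and diaphragm had 0 calls at 24 months by limma-voom, edgeR and DESeq2. In the soleus 3 genes, and in the diaphragm 0, had an unadjusted p under 0.05, beside 6.51% and 2.68% of all genes called.

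The course over the 7 ages was described by choosing between a flat, a linear and a sigmoid curve with the Bayesian information criterion, and the month at which a sigmoid had gone through the middle of its change is given as its inflection. In the tibialis anterior 5 genes were called at some age and had a trend, against 26.8% of all genes, and all 5 rose with an inflection after 21 months. It lay at 22 months for Hspb1, 22.5 for Hspb8, 25.25 for Hspb7, 26.5 for Bag3 and 27 for Cryab, where 27 is the end of the sampled ages. In the gastrocnemius Hspb7 rose late (21.25 months) and Hspb8 a little before (20.75 months), 2 genes against 23.3% of all. In the soleus Cryab (23.75 months) and Hspb6 (25.75 months) fell late and Hspb8 (26.25 months) rose late, 3 genes against 12.6% of all. In the diaphragm, where 6.7% of all genes met both conditions, Hspb2 had a linear rise and Bag3 a late rise, and neither was called at any age. Trends without a call also occurred in the other muscles. Hspb6 rose late (24.5 months) and Hspb2 linearly in the tibialis anterior, and Hspb1 rose linearly in the gastrocnemius. Soleus levels of Bag3 (21.25 months) and Hspb3 (24 months) fell late.

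The medians of Hspb8 in the tibialis anterior were 452, 439, 449, 547, 590, 1010 and 1130 CPM from 6 to 27 months, and those in the gastrocnemius 370, 385, 396, 441, 594, 973 and 829 CPM. Most of the rise thus lay between 21 and 24 months in both muscles. Hspb7 in the tibialis anterior had medians of 371, 361, 424, 480, 501, 770 and 1240 CPM, with its largest step between 24 and 27 months. Soleus medians of Hspb6 were 15800, 15000, 17400, 15200, 14900, 12800 and 9670 CPM, and the 2 lowest were those of 24 and 27 months.

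Whether a change differed between muscles was tested in a fit over all 28 groups. The value tested was the change from 6 to 27 months in a muscle minus that in another. This fit treated libraries as independent, though different muscles may come from the same rats. Tibialis anterior and soleus differed most, with 5 genes called against 15.8% of all genes. The difference was 1.98 ± 0.18 for Hspb7 (adjusted p = 7.98e-21), 1.503 ± 0.14 for Cryab (adjusted p = 6.58e-21), 1.19 ± 0.13 for Hspb6 (adjusted p = 1.07e-15), 0.94 ± 0.085 for Bag3 (adjusted p = 1.17e-21) and 0.81 ± 0.13 for Hspb8 (adjusted p = 1.1e-08). All 5 changed more upward in the tibialis anterior. Between gastrocnemius and soleus 3 genes were called, Hspb7 (1.22), Cryab (0.89) and Hspb6 (0.75), against 14.5% of all genes.

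Between tibialis anterior and diaphragm the called differences were those of Hspb7 (1.41), Hspb8 (1.18) and Cryab (0.72), 3 genes against 20.3% of all. Between gastrocnemius and diaphragm they were those of Hspb8 (0.90) and Hspb7 (0.64), 2 genes against 21.6%. The Hspb7 difference was 0.58 and not called without the 2 libraries with high Hspa1. Between soleus and diaphragm Hspb6 (-1.05) and Cryab (-0.79) were called, against 11.9% of all genes. Tibialis anterior and gastrocnemius, which are both fast muscles, differed in Hspb7 (0.77) and Cryab (0.62), 2 genes against 7.32% of all. Neither was called with a Bonferroni adjustment, and only Hspb7 with weights for library quality. Hspb8 did not pass the test between these muscles, with a difference of 0.28 and a 95% interval from 0.022 to 0.54 (adjusted p = 0.102).

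The muscles already differed at 6 months, on a common scale of all libraries. Hspb7 had medians of 4630 CPM in the soleus, 1330 in the diaphragm, 772 in the gastrocnemius and 425 in the tibialis anterior, and every neighbouring pair in that order was called. The tibialis anterior level differed from that of the soleus by -3.46 ± 0.13 on the log2 scale. Hspb6 had the same order, with medians of 14200, 3900, 3000 and 2230 CPM, and the soleus stood apart from each other muscle. Gastrocnemius minus diaphragm (-0.40) and tibialis anterior minus gastrocnemius (-0.44) passed the test in Hspb6 and stayed below 1.5-fold. Cryab had medians of 3040 CPM in the soleus, 1430 in the gastrocnemius, 1220 in the diaphragm and 572 in the tibialis anterior. The gastrocnemius and diaphragm differed in Cryab by 0.23 (adjusted p = 0.0377), and the sign turned with total-count scaling (-0.21). Bag3 had medians of 419, 320, 293 and 212 CPM and Hspb1 of 598, 421, 478 and 331 CPM in soleus, diaphragm, gastrocnemius and tibialis anterior. Tibialis anterior was the lowest in all 5 of these genes.

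Hspb8 did not follow this order. Its medians at 6 months were 520 CPM in the tibialis anterior, 511 in the soleus, 407 in the gastrocnemius and 358 in the diaphragm, and the largest difference between any pair was that of tibialis anterior and diaphragm. The difference between tibialis anterior and soleus was 0.034, with a 95% interval from -0.14 to 0.21. That between tibialis anterior and diaphragm was 0.45 ± 0.087 (adjusted p = 1.45e-06), below 1.5-fold, and its sign turned with total-count scaling (-0.0080). Hspb2 was highest in the gastrocnemius (27.3 CPM) and soleus (23.6), which differed by 0.19 in a direction that turned with total-count scaling (-0.21), and lower in the tibialis anterior (15.2) and diaphragm (14.8), which did not pass the test (adjusted p = 0.667). Hspb3 had medians of 21.6, 20.1, 17.4 and 14.0 CPM in the same order. With total-count scaling the diaphragm level of Hspb3 was no longer below that of the tibialis anterior (-0.097). With that scaling the median difference of all genes at 6 months was between -0.445 and -0.494 for the tibialis anterior and gastrocnemius against the soleus and diaphragm.

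Over the 8 genes and 6 pairs of muscles, 23 of 48 comparisons were called at 6 months and 14 of 48 at 27 months. Tibialis anterior and soleus had the most, 6 genes at 6 months against 42.9% of all genes and 4 at 27 months against 31.7%. Tibialis anterior and gastrocnemius had 3 against 17.3% and then 1 against 10.4%, and tibialis anterior and diaphragm 4 against 35.1% and then 2 against 27.4%. Gastrocnemius and soleus had 3 against 45.4% and then 2 against 34%, gastrocnemius and diaphragm 3 against 37.3% and then 2 against 32.3%, and soleus and diaphragm 4 against 23.9% and then 3 against 27.9%. Shares of the 8 genes near those of all genes are no result about these genes. For Bag3 the diaphragm and gastrocnemius, neighbours in the order at 6 months, differed by -0.19 ± 0.063 (gastrocnemius minus diaphragm, adjusted p = 0.00387), below the fold, and for Hspb1 the gastrocnemius and diaphragm did not pass the test (0.10, adjusted p = 0.495). The 6-month diaphragm library with high Hspa1 enters these means.

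The range from the lowest to the highest muscle mean was smaller at 27 than at 6 months in 7 of these 8 genes and in 65.8% of the 12784 genes of the joint fit, whose median range was 0.852 at 6 months and 0.724 at 27 months on the log2 scale. The count over the 8 genes was not tested against that share. The range went from 3.46 to 1.47 on the log2 scale for Hspb7, from 2.69 to 1.5 for Hspb6, from 2.41 to 0.90 for Cryab, from 0.98 to 0.33 for Bag3 and from 0.86 to 0.27 for Hspb1. For Hspb2 it went from 0.87 to 0.50 and for Hspb3 from 0.63 to 0.53. Hspb8 was the exception, with a range of 0.44 at 6 months and 1.63 at 27 months. Its medians at 27 months were 1290 CPM in the tibialis anterior, 921 in the gastrocnemius, 759 in soleus and 447 in diaphragm. The tibialis anterior exceeded the diaphragm by 1.63 ± 0.091 (adjusted p = 1.86e-47), while gastrocnemius and soleus differed by 0.27, a sign that turned with total-count scaling (-0.0028). For Hspb7, the soleus was still higher at 27 months, with -1.48 ± 0.13 for the tibialis anterior against it, while tibialis anterior and gastrocnemius differed by -0.11 with a 95% interval from -0.36 to 0.15. Hspb6 was also still higher in the soleus, with -1.51 ± 0.092 for the tibialis anterior against it. For Bag3 the largest difference at 27 months was that of gastrocnemius and diaphragm (-0.33) and for Hspb1 that of tibialis anterior and soleus (-0.27), both below 1.5-fold.

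**Figure D4:**
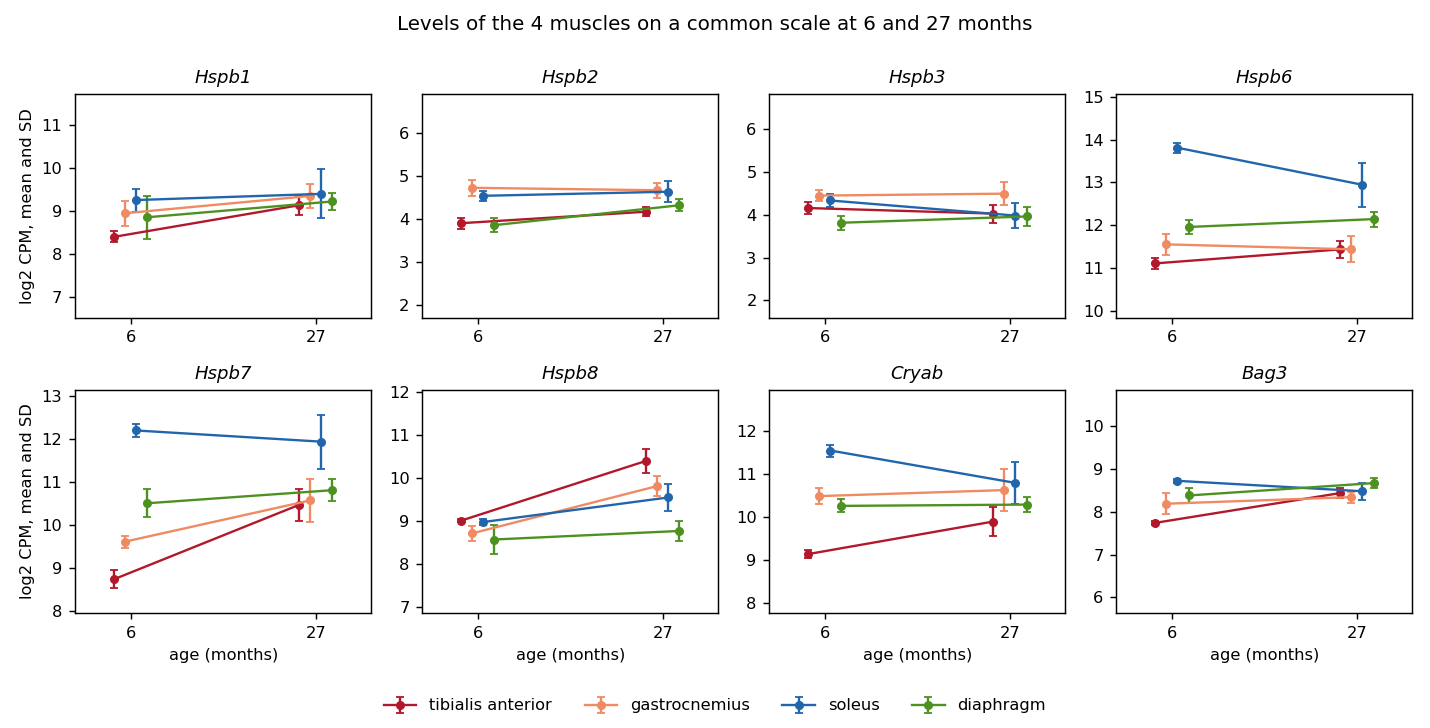
Mean log2 CPM (points) with the standard deviation between libraries (bars) of each gene in the 4 muscles at 6 and 27 months, on a common scale with the same span in every panel. The lines of Hspb7, Hspb6, Cryab, Bag3 and Hspb1 draw together with age and those of Hspb8 spread from a range of 0.44 to 1.63.

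Over the 28 group means of muscle and age, Hspb6 and Hspb7 were the pair of members with the most similar levels (Pearson r = 0.946), followed by Hspb7 and Bag3 (0.914) and Cryab and Bag3 (0.882). Hspb8 was unlike the other 7, with r from -0.234 with Hspb6 to 0.253 with Hspb1. The gene whose group means were most like those of Cryab, of 8690 genes compared, was Hspa1a (r = 0.965), a single value that is uncertain because its reads may be shared with Hspa1b, followed by Ldb1 (0.952). For Hspb6 these were Slc2a13 (0.987) and Myocd (0.986), and for Bag3 Epn3 (0.953) and Tmbim1 (0.94). Hspb8 was most like PVR and Aak1 (0.958 each), Hspb1 like Clic4 (0.925) and Zfp36l1 (0.912), Hspb2 like S100a6 (0.953) and Rps13 (0.951), and Hspb3 like Gnl3l (0.952) and Yy1 (0.925). These values describe 28 means that share muscles and collection days.

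Related genes were followed in lists, 82 tested of 88 listed. They were chaperones, co-chaperones, heat shock factors, Bag family genes, autophagy partners of Bag3 and filament and Z-disc clients. Of these, 7 were called higher and 9 lower in the tibialis anterior at 27 months, where 17.2% of all genes were called higher and 10.4% lower. In the gastrocnemius the counts were 6 and 2, beside 15.1% and 7.76% of all genes. In the soleus they were 1 and 7, beside 9.21% and 5.78%, and in the diaphragm 1 and 2, beside 3.27% and 4.25%. Counts near these shares are no result about the listed genes. Their median log2 change lay between -0.050 and -0.0046 in the 4 muscles. The Hsp70 and Hsp110 chaperones had 2 of 15 called higher in the tibialis anterior, the inducible Hspa1a (0.78) and Hspa1b (1.06), near-identical copies that may share reads and cannot be counted as separate changes. Hspa4l was called higher in the gastrocnemius (0.74) and the diaphragm (0.82). In the soleus 3 were called lower by limma-voom but only 1 by edgeR and 1 by DESeq2, and the mitochondrial Hspa9 (-0.60) was called by neither of these, nor with total-count scaling. Hspa8, the constitutive Hsp70 that works with Bag3, changed by -0.16 in the tibialis anterior, by -0.26 in gastrocnemius, by -0.15 in soleus and by 0.092 in diaphragm. With total-count scaling its change was 0.17 in the tibialis anterior and 0.027 in the gastrocnemius.

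Of 16 J-domain co-chaperones, which hand clients to Hsp70, 2 were called lower in the tibialis anterior and 1 lower in the soleus, Dnaja4 (-0.98). In the gastrocnemius limma-voom called 1 higher, while edgeR and DESeq2 called 0, and 10 had an unadjusted p under 0.05. Dnajb1, the member with the highest mean change, ranged from 0.14 in the diaphragm to 0.34 in the tibialis anterior. Of 14 Hsp90 chaperones and co-chaperones, 3 were called lower in the tibialis anterior, 1 higher and 2 lower in the gastrocnemius, 1 lower in the soleus and 2 lower in the diaphragm, of which DESeq2 called 1. Fkbp4, an Hsp90 partner of steroid receptors, was called lower in the tibialis anterior (-0.996), gastrocnemius (-1.10) and soleus (-0.84). Hsp90ab1 itself ranged from -0.14 in the soleus, where the sign turned with total-count scaling (0.0082), to 0.18 in the tibialis anterior. Of 11 chaperonins and mitochondrial chaperones, limma-voom, edgeR and DESeq2 called 0 in 44 comparisons, of which 30 had an unadjusted p under 0.05. Cct3 ranged from 0.074 in the diaphragm to 0.36 in the gastrocnemius, and Hspd1 from -0.43 in the soleus to 0.24 in the gastrocnemius, with -0.30 in the tibialis anterior that became 0.018 with total-count scaling.

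The transcript of Hsf1 was lower or near its level at 6 months, with -0.26 in tibialis anterior, -0.53 in gastrocnemius, -0.28 in soleus and -0.012 in diaphragm. Its sign in the tibialis anterior turned with total-count scaling (0.063). Of the 4 genes listed under heat shock factors (Hsf1, Hsf2, Hsf4 and the binding protein Hsbp1), 1 was called, Hsf2 in the gastrocnemius (0.85). Hsf4 ranged from 0.047 in the gastrocnemius to 0.54 in the tibialis anterior. The other 5 Bag family genes were called in 0 of 20 comparisons by limma-voom, edgeR and DESeq2, with 7 at an unadjusted p under 0.05. Bag1 ranged from 0.031 to 0.18 and Bag6 from -0.46 in the gastrocnemius to 0.027 in the diaphragm, and the tibialis anterior value of -0.23 became 0.093 with total-count scaling. Of 4 other small heat shock protein genes, Hspb11 alone was tested, which is also a ciliary transport gene named Ift25. It was called higher in the gastrocnemius (0.95) and tibialis anterior (0.73).

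Of 10 partners of Bag3 in selective autophagy, 1 was called higher and 1 lower in the tibialis anterior. These were Sqstm1 (0.67), the autophagy receptor p62, and Synpo2 (-0.71), the Z-disc protein that joins Bag3 to the membrane fusion machinery, which was not called with total-count scaling (-0.40). In the other muscles limma-voom, edgeR and DESeq2 called 0 of the 10, and between 7 and 8 had an unadjusted p under 0.05. Stub1, the ubiquitin ligase of the complex, ranged from -0.075 in the gastrocnemius to 0.23 in the soleus. Of 8 filament and Z-disc clients, 3 were called higher and 3 lower in the tibialis anterior, 1 higher in the gastrocnemius, and 1 higher and 2 lower in the soleus. The edgeR and DESeq2 tests called 5 of the 8 in the tibialis anterior. Flnc, the client of Bag3, was called higher in the tibialis anterior (0.61), with 0.29 in the gastrocnemius, 0.15 in soleus and 0.050 in diaphragm. Nes was called higher in the gastrocnemius (1.46), soleus (0.83) and tibialis anterior (0.63), and Synm lower in the tibialis anterior (-1.06) and soleus (-0.70). In the diaphragm these tools called 0 of the 8, and 3 had an unadjusted p under 0.05.

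**Figure D5:**
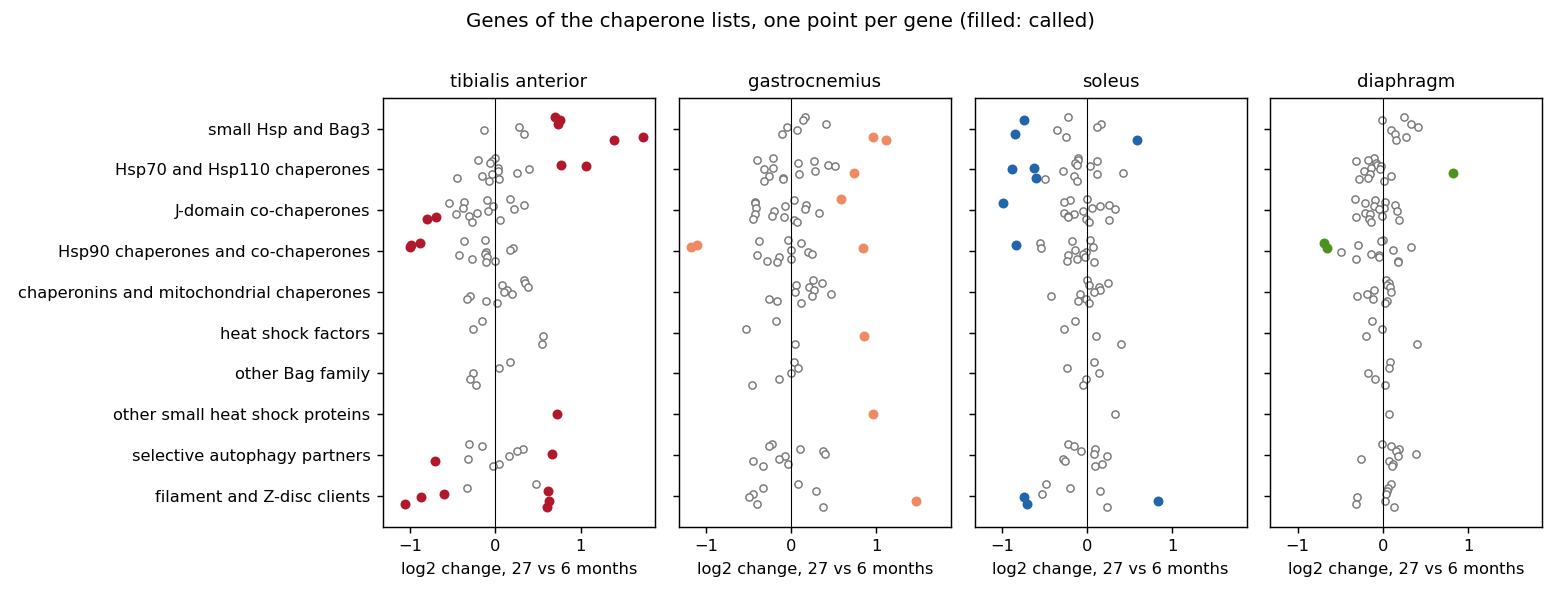
Log2 change from 6 to 27 months (x axis) of each gene of the lists (y axis, points), with filled points for called genes and a panel for each muscle. In the tibialis anterior 5 of the 8 small heat shock protein genes and Bag3 are filled to the right, against 7 of the 82 genes of the other lists.

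Markers of fibre state and of other cell types moved with age in the same libraries, and their part in the results above was not tested. All 8 markers of denervated fibres were called higher in every muscle. Their summed level went from 49.8 to 79.6 CPM over the libraries at 6 months to 608 to 2510 CPM at 27 months in the tibialis anterior, from 77 to 101 CPM to 447 to 1470 CPM in the gastrocnemius, from 223 to 275 CPM to 397 to 1750 CPM in the soleus and from 97.2 to 165 CPM to 168 to 749 CPM in the diaphragm. The acetylcholine receptor subunit Chrnd rose 28.4-fold, 10.1-fold, 2.96-fold and 3.56-fold in that order. Slow fibre markers had 1 of 6 called lower in the tibialis anterior (Myh7, -1.07, not called by edgeR or DESeq2) and 1 of 6 lower in the soleus, where Myh7 changed by -0.58. Their summed level in the soleus went from 65800 to 82200 CPM at 6 months to 27600 to 85800 CPM at 27 months. Fast fibre markers had 7 of 8 called higher in the soleus, 3 lower in the tibialis anterior, 4 lower in the gastrocnemius and 1 higher in the diaphragm. By edgeR and DESeq2 there were 6 in the soleus, 3 in the tibialis anterior and 3 in the gastrocnemius, and in the diaphragm 0 by edgeR and 1 by DESeq2. Myh4, the fastest myosin, changed by 3.08 in the soleus, -1.497 in the tibialis anterior and -1.27 in the gastrocnemius. Summed fast fibre markers in the soleus ranged from 628 to 4590 CPM at 6 months and from 1420 to 8250 CPM at 27 months. These ranges overlap. In the soleus all 6 slow fibre markers had an adjusted p under 0.05 by limma-voom, with a median log2 change of -0.35. Thus the fall of Hspb6 and Cryab in the soleus stood beside higher fast and denervated fibre markers. The rises in the tibialis anterior also stood beside higher denervated fibre markers, which were higher in every muscle.

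Smooth muscle also expresses Hspb6 and Hspb1. Of 5 smooth muscle markers, 2 were called higher and 1 lower in the tibialis anterior and the gastrocnemius, and their summed level ranged from 157 to 264 CPM at 6 months and 134 to 259 CPM at 27 months in the tibialis anterior. In the soleus it ranged from 189 to 275 CPM and 157 to 236 CPM. Myh11 had a change of 0.43 in tibialis anterior, 0.62 in the gastrocnemius, where it was called, and -0.31 in the soleus. All 5 macrophage markers were called higher in the tibialis anterior and gastrocnemius and 1 in the soleus. All 4 adipocyte markers were called higher in the 3 limb muscles. Of 4 endothelial markers, Kdr was called lower in each limb muscle. Of 4 fibroblast markers, 1 was called lower in the gastrocnemius, 1 in soleus and 2 in diaphragm. Of 4 Schwann cell markers, 1 was called higher in each limb muscle and 2 lower in the gastrocnemius, where edgeR and DESeq2 called 2 of the 4 in place of 3. In the diaphragm limma-voom called 0 of the 4, with 2 at an unadjusted p under 0.05, and edgeR and DESeq2 called 1 each. Of 3 red cell markers tested, limma-voom, edgeR and DESeq2 called 0 in any muscle, and 0 of 12 had an unadjusted p under 0.05.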

How the data were processed

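Ribosomal-RNA-depleted, strand-specific total RNA libraries were sequenced as paired ends. The authors aligned and quantified the reads with ArrayStudio on a rat genome with a RefSeq-based gene model of their own, and deposited raw read counts per gene symbol, 1 file for each of 325 libraries. Each library was assigned to a muscle, age and replicate by its title, and 0 columns were left out. Files held 17870 gene lines and 17315 symbols.

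For each muscle, genes were filtered with filterByExpr (minimum count 10, minimum total 15), which left 11754 to 12175 genes. Libraries were scaled by TMM, the trimmed mean of M values. The counts were fitted with limma-voom on age (limma 3.58.1, edgeR 4.0.16, R 4.3.3), and levels are CPM. Differences between muscles came from a joint fit of all 28 groups on 12784 genes. Calls required an adjusted p under 0.05 (Benjamini-Hochberg, all genes tested) and over 1.5-fold. Trends were chosen by the Bayesian information criterion (margin 6, and 2 more for a sigmoid over a line), with an inflection after 21 months named late. In simulated data on the tibialis anterior, 27 against 6 months, 11684 genes, the fit called 94% of genes raised by 1 on the log2 scale and 91.8% of those lowered by 1.

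The 8 genes were taken by their symbols, and all are named. Of each other list, the genes with the highest and lowest mean change over the muscles were named, with Hsf1, Hspa8, Stub1, Hspa1a, Hspa1b and Flnc, and of the markers Myh7, Myh4, Chrnd and Myh11. For each of the 8 genes, the 2 genes with the most similar group means were named, except that those of Hspb7 are not reported here. Any other gene named was chosen after its values were seen. The genes and lists were chosen with earlier results of these data known. The alternatives tried were other scalings, no filter, quality weights, edgeR's quasi-likelihood test, DESeq2 (1.42.0), Bonferroni adjustment, a 2-fold threshold, the replicate number as a block, a larger trend margin and leaving out libraries. Single libraries with high Hspa1 or low Hspb6 were left out only after the data had been seen. Libraries held 17555294 to 85316329 counts, so that 10 CPM stands for more than 100 counts in each.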

Additional observations from a re-analysis of the deposited data

Results flagged for a closer look

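The log2 change between 6 and 27 months differed between muscles by the test of the difference itself in all 6 pairs of muscles. It was called for 2 genes between tibialis anterior and gastrocnemius (Cryab and Hspb7), 5 between tibialis anterior and soleus (Bag3, Cryab, Hspb6, Hspb7 and Hspb8), 3 between tibialis anterior and diaphragm (Cryab, Hspb7 and Hspb8), 3 between gastrocnemius and soleus (Cryab, Hspb6 and Hspb7), 2 between gastrocnemius and diaphragm (Hspb7 and Hspb8) and 2 between soleus and diaphragm (Cryab and Hspb6). Of all genes, 7.32%, 15.8%, 20.3%, 14.5%, 21.6% and 11.9% were called in these pairs, in the same order. Counts near these shares are no result about these genes. Hspb7 was among the called genes in 5 of the 6 pairs, and in soleus against diaphragm it passed without the 2 libraries with high Hspa1 (-0.64). The differences of Hspb1, Hspb2 and Hspb3 stayed below 1.5-fold in each pair, though Hspb3 had adjusted p-values of 0.00016 between gastrocnemius and soleus (0.42) and 1.05e-05 between soleus and diaphragm (-0.49). Hspb2 had 2.59e-06 between gastrocnemius and diaphragm (-0.50). In 24 sets of 1 gene in a group of at most 10 libraries that were looked at for a library far from the others, 0 held one. These groups were those of the gastrocnemius at 6, 21 and 24 months. The libraries set apart above, in the diaphragm, tibialis anterior and soleus, lay in larger groups that were not looked at in this way.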

How the results depend on the processing

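Of 7496 single-gene values under an alternative, 7330 kept their direction and side of the thresholds, 102 fell below them, 55 of these at 2-fold, 51 passed them and 13 changed sign. Shares of all genes called under the alternatives are not given, so the counts below show only how calls depend on the processing. With a 2-fold threshold, the 8 genes had 2, 1 and 0 calls in tibialis anterior, gastrocnemius and soleus at 27 months, 3 at 24 months and 0 at 21 months over the 4 muscles, and trends in 2, 1 and 0. The genes of the other lists had 2, 3, 0 and 0 in tibialis anterior, gastrocnemius, soleus and diaphragm. Differences of the change at 2-fold numbered 0 for tibialis anterior and gastrocnemius, 3 for tibialis anterior and soleus, 1 for gastrocnemius and soleus, 0 for gastrocnemius and diaphragm and 1 for soleus and diaphragm. Differences between muscles at 6 months numbered 1, 3 and 2 for tibialis anterior against gastrocnemius, soleus and diaphragm and 0 for gastrocnemius against diaphragm. At 27 months they numbered 0, 2 and 1 for tibialis anterior against the same muscles, 1 for gastrocnemius against diaphragm and 1 for soleus against diaphragm.

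Total-count scaling gave 16 calls among the genes of the other lists in the gastrocnemius and 5 in the soleus. It gave 2 genes between tibialis anterior and gastrocnemius at 27 months, 6 between gastrocnemius and soleus at 6 months, and 5 for the change in tibialis anterior against diaphragm. It turned the sign of 13 values. These were the changes of Hspb3 (0.191), Hspa8 (0.165), Bag6 (0.0933), Hsf1 (0.0632) and Hspd1 (0.0178) in the tibialis anterior, Hspa8 in the gastrocnemius (0.0273) and Hsp90ab1 in the soleus (0.0082), the difference of the change of Hspb3 in tibialis anterior against diaphragm (0.0575), the differences at 6 months of Cryab in gastrocnemius against diaphragm (-0.208), Hspb2 in gastrocnemius against soleus (-0.212), Hspb3 (-0.097) and Hspb8 (-0.0080) in tibialis anterior against diaphragm, and that of Hspb8 in gastrocnemius against soleus at 27 months (-0.0028). The edgeR test gave 2 genes between tibialis anterior and gastrocnemius at 27 months. Bonferroni adjustment gave 1 call at 21 months, 1 difference of the change for gastrocnemius and diaphragm and 0 for tibialis anterior and gastrocnemius. Quality weights gave 1 call at 21 months and 1 difference of the change for tibialis anterior and gastrocnemius. Without the 2 libraries with high Hspa1 there was 1 call at 21 months and 1 difference of the change for gastrocnemius and diaphragm. These causes were not tested.

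Leaving out each 6-month or 27-month library in turn (93 fits) kept the 10 calls at 27 months except that of Hspb8 in the soleus. That call was also lost with RLE size factors (0.58) and without the filter (0.58). Without replicate 8 of the soleus at 27 months, Cryab was called between soleus and diaphragm at that age (0.63). Replicate numbers recur between ages and muscles. Ages were different rats, and same-numbered libraries at 6 and 27 months correlated between -0.18 and 0.29. Between muscles at 6 months, the libraries that correlated best with their own number were 8 of 12 for tibialis anterior and soleus (lowest r 0.051), 9 of 12 for tibialis anterior and diaphragm (0.026) and 8 of 12 for soleus and diaphragm (0.027), and 1 of 10 for each pair with the gastrocnemius. At 27 months the counts for the same 3 pairs were 5, 5 and 4 of 12. Those for tibialis anterior, soleus and diaphragm with the gastrocnemius were 2, 0 and 2 of 11. The counts hint at shared animals in 3 of the muscles, but as not every r was over 0.1 the numbers were not taken as a pairing. The joint fit treats libraries as independent, and its p-values leave out any such pairing. The replicate block gave each number a single effect over all ages, and in the joint fit over all muscles. As ages were different rats, it matches no animal and cannot show what pairing the muscles of a rat would do. With the replicate block the tibialis anterior had 5 calls at 27 months, and the change of 6 genes in place of 5 differed between tibialis anterior and soleus, Hspb1 (0.586) being added. It changed no other call of a gene named here.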
